A study of Mus musculus with 6 samples.

Results

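The genes described here are the transcription factor NRF2 (gene Nfe2l2), its inhibitor Keap1, a set of well-known NRF2 targets, and the enzymes that remove superoxide and peroxides. They were taken from a list of 38 mouse gene symbols grouped by role, of which 37 were matched to Ensembl identifiers among the 23886 genes measured (Cbr3 was not analysed here). RNA with poly(A) tails was sequenced from AML12 cells, a hepatocyte line derived from the liver of a mouse carrying a human TGF-alpha transgene, so all libraries come from the same line. The 3 control libraries (Control 2, 3 and 4) came from untreated wild type cells, and the 3 others (SMF 1, 2 and 3) from cells that received a static magnetic field (SMF). Field strength, exposure time and whether the libraries came from separate cultures are not given in the sources available, so p-values measure the spread between these libraries only, which may be technical.

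NRF2 is held at a low level by KEAP1, which directs it to degradation. Oxidants and electrophiles modify KEAP1, and the NRF2 that then accumulates enters the nucleus, pairs with a small MAF protein and binds antioxidant response elements in front of genes for glutathione synthesis, thioredoxin recycling, NADPH supply and detoxification. In hepatocytes this program limits damage from drugs, bile acids and fat oxidation. Superoxide is turned into hydrogen peroxide by superoxide dismutases, and catalase, glutathione peroxidases and peroxiredoxins reduce the peroxide, drawing on NADPH through glutathione and thioredoxin.

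The antioxidant response element has the core TGACNNNGC, searched here on both strands in RefSeq promoter windows of build GRCm38.p6 (250 bases before to 50 after a start site). Windows were matched for 33 of the 38 genes, and 11 of the 33 held the core in at least 1 window, against 14.0% of the 27025 genes with a window. By window, 28.6% of 42 held it, against 12.4% of all 32851. The stretches below are a selection of those that carry the core ahead of, or across, a start site. Stretches of Abcc4 and another of Ugdh also carry it and are not shown. Cores are in capitals, in either orientation. Those of Prdx1 and Me1 spell TGACTCAGC, found in 0.454% of all windows.
Nfe2l2 (chr2:75704875-75704913, minus strand): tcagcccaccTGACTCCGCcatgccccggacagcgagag
Gclm (chr3:122245403-122245451, plus strand): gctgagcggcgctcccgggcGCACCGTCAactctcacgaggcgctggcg
Prdx1 (chr4:116685446-116685494, plus strand): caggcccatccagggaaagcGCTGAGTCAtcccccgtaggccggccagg
Ugdh (chr5:65435946-65435994, minus strand): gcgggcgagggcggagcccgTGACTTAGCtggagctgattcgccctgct
Me1 (chr9:86695912-86695940, minus strand): cggctcggccgatgccgccgTGACTCAGC
Txnrd1 (chr10:82859094-82859142, plus strand): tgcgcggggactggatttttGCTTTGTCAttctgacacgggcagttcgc
Sod1 (chr16:90220686-90220734, plus strand): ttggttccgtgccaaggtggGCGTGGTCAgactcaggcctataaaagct
G6pdx (chrX:74428909-74428957, minus strand): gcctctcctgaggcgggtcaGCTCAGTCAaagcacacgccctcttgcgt

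The 6 libraries held between 15514530 (SMF 1) and 18200516 (Control 3) reads. Among markers of the line, Hnf4a was at 86.97 to 95.49 FPKM (fragments per unit of exon length and of sequencing depth) and Alb, serum albumin, at 26.25 to 34.13, while Apoa1 stayed at or below 0.5853. Of the bile duct markers, the keratin Krt19 was high in all libraries, at 1024 to 1163 FPKM, as was Spp1, at 825.9 to 916.7. Krt7 was at 58.82 to 65.15 FPKM and Sox9 at 8.849 to 10.42, while Epcam and Cftr were at or near 0. Of the stellate cell and fibroblast markers, Col1a2 and Dcn were at 0 in all 6 libraries. Of the macrophage list, 5 of 7 genes were analysed, and their summed level was 177.7 to 196.0 FPKM in controls against 202.2 to 218.5 in SMF libraries, nearly all of it Cd14, a lipopolysaccharide receptor (adjusted p = 0.174 by limma, 0.033 by limma-voom and 0.279 by limma-voom with GC content and length corrected). Cd68 and Csf1r of that list were low but passed 1 FPKM, at 2.054 to 3.083 and 0.9325 to 1.426, with overlap between groups. Lyz2 was at or below 0.7476 FPKM, and Ptprc, which marks blood cells, at or below 0.01603. The part of the Cd14 difference in the results was not tested. The summed hepatocyte list (10 genes, 7 of them at 1 FPKM or more) was at 3631 to 3825 FPKM in controls against 3805 to 4013 under SMF. Nearly all of that sum was the keratins Krt8 (mean 1921 against 2018 FPKM) and Krt18 (1584 against 1658), whose log2 folds, both 0.07, were -0.02 and -0.03 with GC content and length corrected. The bile duct list (4 of 6) was at 1949 to 2064 against 1968 to 2125. The stellate list was at most 1.943 FPKM, and the endothelial list at most 0.1687, with none of its genes at 1 FPKM. In bulk RNA, a change in the cells of a type and in the RNA per cell cannot be told apart.

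Levels of the NRF2 and peroxide removal genes in SMF libraries lay close to the control levels. Of the 36 genes that passed the filter (1 FPKM or more in 3 or more libraries), none passed limma on log2(FPKM + 1) at an adjusted p under 0.05 (background 0.0% of 11114 genes tested; lowest adjusted p among the 36, 0.147). At an unadjusted p under 0.05, 4 were higher and 2 lower in SMF libraries, against 9.41% and 8.57% of all genes (18.0% in either direction). With limma-voom on reads recovered from the FPKM values, 2 of the 36 were higher, Gpx4 and Taldo1, and none lower, against 2.08% of all genes higher and 2.25% lower (4.33% in all). On log2(FPKM + 1), the 95% interval of limma lay within 1.2-fold either way for 33 of the 36 (57.3% of all genes). It lay within 1.5-fold for all 36 (94.6% of all genes). The 3 that reached beyond 1.2-fold were Cbr1, Osgin1 and Gpx4. This scale understates folds of low genes: the log2 fold of Cbr1 was 0.20 with 1 added to FPKM and 0.28 with 0.1 added. All genes tested were not matched to the 36 for level or reads, so these shares do not compare stability. These intervals are per gene, not adjusted for the number of genes.

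Small differences in both directions were seen. Of the 36, 26 had a log2 fold above 0 (72.2%, against 46.7% of all genes), and the median log2 fold was 0.039, against -0.01 for all genes tested. With the filter raised to 5 FPKM, 25 of 34 were above 0 with a median of 0.039, against 50.6% and 0.002 for all genes. All 3 SMF libraries lay above all 3 controls for 7 of the 36, and below for 3, where the shares over all genes were 11.0% and 12.7%. The 7 were Gpx4, Taldo1, Prdx2, Txn2, Ephx1, Tkt and Prdx6, and the 3 were Ugdh, Txnrd1 and Srxn1. When each library was rescaled to a common sum (TPM scale) the median was 0.006 with 20 of 36 above 0, against a median of -0.043 and 36.9% above 0 for all genes. After quantile normalization the median was 0.007 with 19 of 36 above 0, against -0.008 and 46.8% for all genes.

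**Figure D1:**
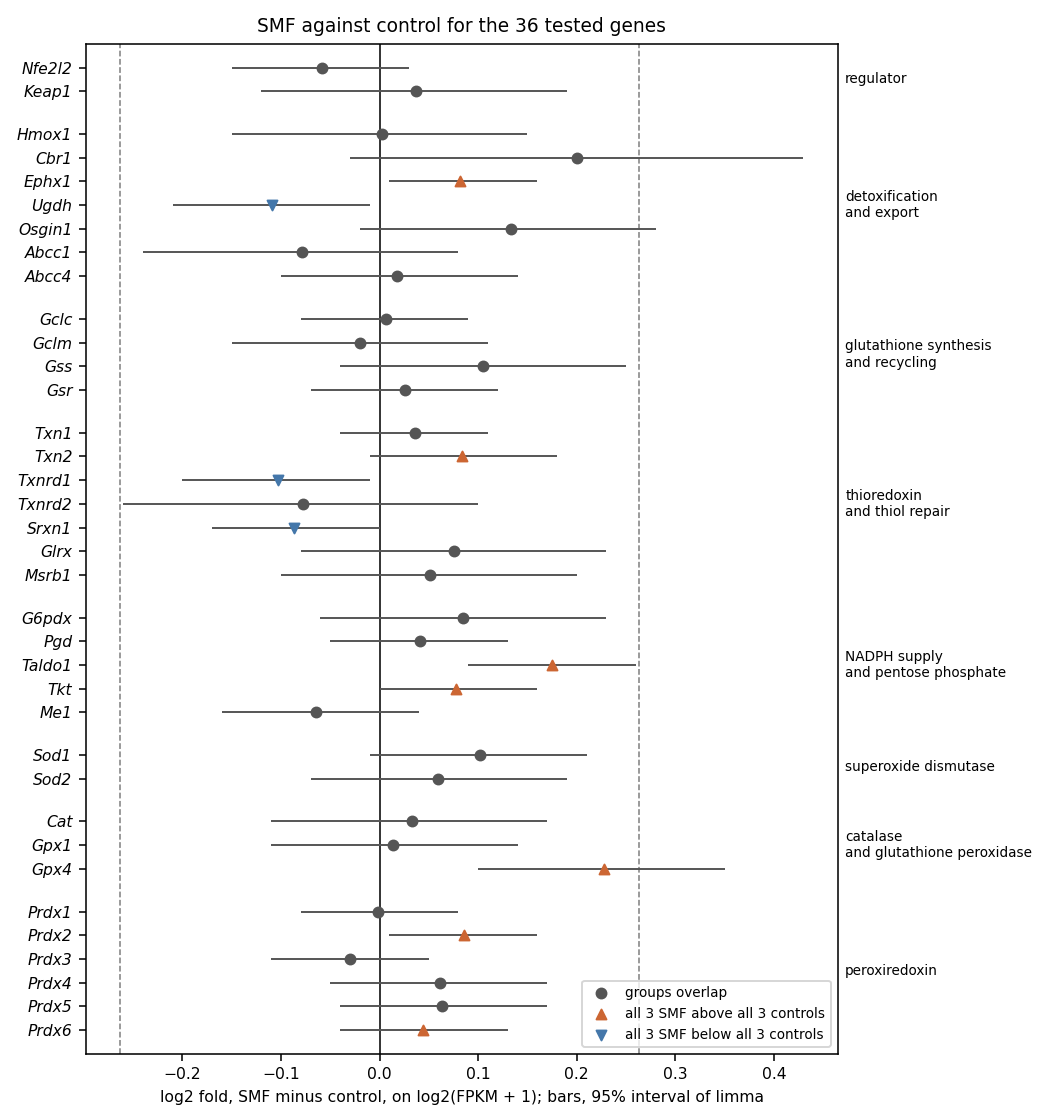
Log2 fold (SMF minus control, on log2(FPKM + 1)) of the 36 tested genes grouped by role, with the 95% interval of limma as bars and dashed lines at a 1.2-fold change. Triangles mark the 10 genes whose libraries do not overlap between groups, and the intervals of 33 genes stay between the dashed lines.

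**Figure D2:**
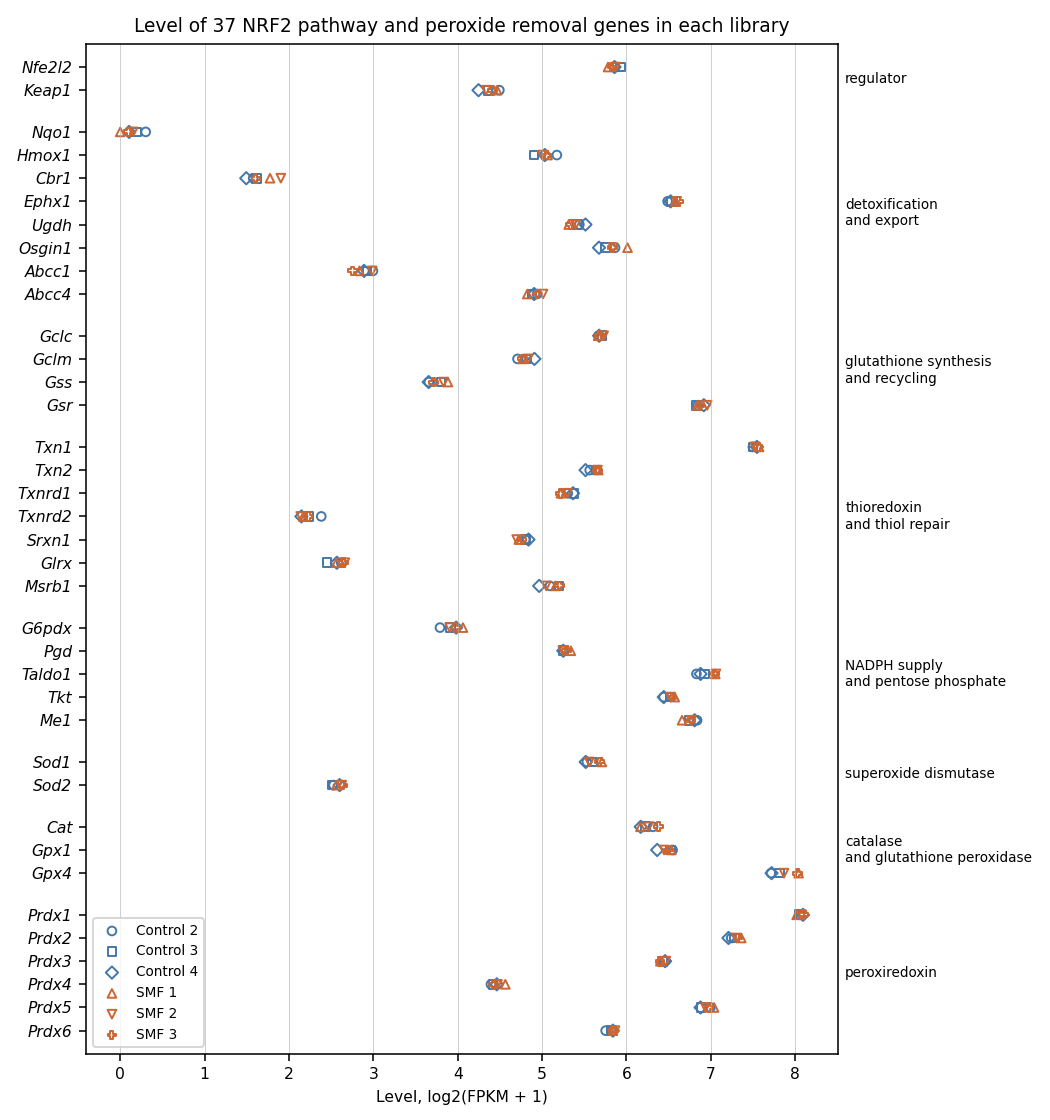
Level of the 37 analysed genes, log2(FPKM + 1), in each of the 6 libraries (control libraries blue, SMF libraries orange), grouped by role. The 6 libraries of a gene lie close together compared with the distance between genes, and Nqo1 lies near 0.

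The regulators themselves were abundant and differed little. Nfe2l2 (ENSMUSG00000015839) was at 57.19, 59.99 and 57.01 FPKM in controls against 54.0, 57.47 and 55.75 under SMF. Its SMF values reached lower, but the groups overlapped (log2 fold -0.06, 95% interval -0.15 to 0.03; limma adjusted p = 0.458). Keap1 was at 21.52, 19.5 and 17.98 FPKM in controls against 21.11, 19.18 and 20.24 under SMF, wholly overlapping (log2 fold 0.04, adjusted p = 0.789). In the M21 annotation, 10.9% of the exon length of Keap1 is shared with Gm16754 on the opposite strand. NRF2 activity is set mainly by the stability of the protein, which these data do not measure.

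Of the other genes in the NRF2 switch, a list of 12 covered MAF partners, the repressor BACH1 and the degradation machinery. All 12 passed the filter and none passed limma. At an unadjusted p under 0.05 by limma, 3 were higher and 1 lower, against 9.41% and 8.57% of all genes. With limma-voom 1 passed, against 4.33% of all genes. That gene was Sqstm1, which encodes p62, an autophagy receptor that can bind KEAP1. It was at 183.6, 176.2 and 177.4 FPKM in controls against 199.0, 199.8 and 199.4 under SMF, all above every control (limma-voom adjusted p = 0.017, and 0.11 after trends with GC content and gene length were removed from each library, called the GC/length correction from here on). Bach1 was at 4.759 ± 0.484 FPKM in controls against 4.31 ± 0.497 under SMF (SD, n = 3), with overlap.

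Nqo1, a quinone reductase used as the standard readout of NRF2, was close to silent in these cells. It had 6, 4 and 2 reads in controls against 0, 3 and 2 under SMF, a level of at most 0.2327 FPKM. The 0 reads of SMF 1 allow a level of up to 3 reads, or 0.125 FPKM, by counting error alone. It was not tested, and no fold is given at such counts.

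The stretch ahead of the start site of Nqo1, the target close to silent here, is shown for comparison and holds no core in its window, which says nothing of sites elsewhere.
Nqo1 (chr8:107403206-107403325, minus strand): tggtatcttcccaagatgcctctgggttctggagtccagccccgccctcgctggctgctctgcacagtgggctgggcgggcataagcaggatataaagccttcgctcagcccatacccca

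Hmox1 and Osgin1, other classical targets, were well expressed, and their libraries overlapped between groups. Hmox1, which breaks down heme, was at 35.12, 28.9 and 31.72 FPKM in controls against 32.47, 31.03 and 32.1 under SMF. The SMF values lay inside the control range (log2 fold 0.002, 95% interval -0.15 to 0.15; adjusted p = 0.99). Osgin1, a stress-induced growth inhibitor, was at 57.26, 52.79 and 50.06 FPKM in controls against 63.54, 56.38 and 55.96 under SMF, with SMF 1 highest and the others within the control range (log2 fold 0.13, adjusted p = 0.319). Cbr1, a carbonyl reductase, had only 79 to 121 reads per library and so the widest interval of the 36 (log2 fold 0.20, -0.03 to 0.43). Its level was 1.954 ± 0.127 FPKM in controls against 2.404 ± 0.347 under SMF (SD, n = 3), with overlap.

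Ephx1 and Ugdh differed in opposite directions without passing the test. Ephx1, microsomal epoxide hydrolase, was at 88.71, 91.8 and 90.93 FPKM in controls against 94.54, 95.65 and 97.32 under SMF, all above every control (log2 fold 0.08, adjusted p = 0.25). Ugdh, which makes the UDP-glucuronate that glucuronidation uses, was at 42.45, 41.78 and 44.69 FPKM in controls against 38.81, 41.15 and 39.37 under SMF, all below every control (log2 fold -0.11, adjusted p = 0.24). After the GC/length correction the log2 fold of Ephx1 was 0.02 and that of Ugdh -0.02. The export pump Abcc1 was at 6.66 ± 0.286 FPKM in controls against 6.265 ± 0.602 under SMF (log2 fold -0.08), with overlap. Abcc4, another pump, was at 29.05 ± 0.607 against 29.46 ± 1.98 (log2 fold 0.02, and below 0 on the TPM scale and after quantile normalization).

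None of the 4 genes for glutathione synthesis and recycling separated the groups. Gclc, the catalytic subunit of the rate-limiting ligase, was at 49.82, 51.38 and 50.12 FPKM in controls against 49.72, 52.06 and 50.27 under SMF. The groups overlapped (log2 fold 0.01, 95% interval -0.08 to 0.09). Gclm, the modifier subunit, was at 25.14, 27.21 and 29.04 FPKM in controls against 26.3, 27.56 and 26.25 under SMF, inside the control range. The ratio of Gclc to Gclm was 1.87 ± 0.129 in controls against 1.90 ± 0.0145 under SMF (SD, n = 3). Gsr, which regenerates glutathione with NADPH, was the most abundant of the group, at 114.0, 112.8 and 119.8 FPKM in controls against 113.7, 123.2 and 116.1 under SMF, with overlap. Gss, glutathione synthetase, was at 12.05 ± 0.761 FPKM in controls against 13.04 ± 0.828 under SMF, with overlap (log2 fold 0.11, -0.04 to 0.25). Slc7a11, the cystine importer that feeds this pathway and is itself an NRF2 target, was low, at 1.584 ± 0.219 FPKM in controls against 1.408 ± 0.193 under SMF.

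In the thioredoxin system, a pair of NRF2 targets was lower in every SMF library than in any control, without passing the test. Txnrd1, the cytosolic thioredoxin reductase, was at 38.5, 40.56 and 40.25 FPKM in controls against 36.33, 38.4 and 36.17 under SMF. The gap between the groups was small, 38.4 in SMF 2 against 38.5 in Control 2 (log2 fold -0.10, 95% interval -0.20 to -0.01; adjusted p = 0.251). Srxn1, sulfiredoxin, which restores over-oxidised peroxiredoxins, was at 26.85, 27.02 and 27.61 FPKM in controls against 25.42, 24.97 and 26.15 under SMF (log2 fold -0.09, adjusted p = 0.28). After the GC/length correction these folds were -0.07 and -0.13.

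Of the thioredoxins, only Txn2 separated the groups. Txn1, the cytosolic thioredoxin, was at 179.8, 179.9 and 185.9 FPKM in controls against 189.2, 182.6 and 187.6 under SMF, with overlap (log2 fold 0.04, and below 0 after quantile normalization or the GC/length correction). Txn2, its mitochondrial counterpart, was at 46.31, 49.09 and 44.71 FPKM in controls against 49.78, 49.4 and 49.42 under SMF, where SMF values were nearly equal and just above Control 3 (log2 fold 0.08, adjusted p = 0.33). The mitochondrial reductase Txnrd2 was far below Txnrd1 in FPKM, with a ratio of Txnrd1 to Txnrd2 of 10.6 ± 1.33 in controls against 10.5 ± 0.73 under SMF. Glrx, glutaredoxin, was at 4.846 ± 0.343 FPKM in controls against 5.16 ± 0.226 under SMF (log2 fold 0.08). Msrb1, which repairs oxidised methionine, was at 33.03 ± 2.74 against 34.23 ± 1.91 (log2 fold 0.05, and below 0 after the GC/length correction). Both overlapped between groups.

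Taldo1, in NADPH supply and the pentose phosphate pathway, had the lowest limma p of the 36 genes. Taldo1 (ENSMUSG00000025503), transaldolase of the non-oxidative branch, was at 112.7, 120.7 and 116.6 FPKM in controls against 131.7, 132.4 and 131.4 under SMF. The SMF libraries were tightly grouped and all above Control 3, the highest control (mean 116.7 ± 4.0 against 131.8 ± 0.516, SD, n = 3; ratio 1.13). The log2 fold was 0.18 (95% interval 0.09 to 0.26; SE 0.035), with an adjusted p of 0.147 by limma and 0.0193 by limma-voom. After the GC/length correction it was 0.12, and the limma-voom adjusted p was 0.189.

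Tkt, transketolase of the same branch, was at 85.84, 90.48 and 85.93 FPKM in controls against 94.12, 90.86 and 92.02 under SMF, with SMF 2 just above Control 3 (log2 fold 0.08, adjusted p = 0.298; 0.08 after the correction). In the oxidative branch, G6pdx and Pgd overlapped between groups, while Pgls, described below, was higher in every SMF library than in any control. G6pdx, the entry enzyme, was at 13.91 ± 0.997 FPKM in controls against 14.81 ± 0.859 under SMF (log2 fold 0.09, -0.06 to 0.23), and shares 13.6% of its length with Ikbkg on the opposite strand. Pgd, which makes NADPH in a later step, was at 37.1 ± 0.138 against 38.2 ± 1.28 (log2 fold 0.04, -0.05 to 0.13). Me1, malic enzyme, was at 110.1 ± 3.7 against 105.3 ± 4.58 (log2 fold -0.06), also with overlap.

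Among 14 other NADPH-related genes, 12 passed the filter, 5 had a log2 fold above 0 (41.7%, against 46.7% of all genes) and none passed limma. At an unadjusted p under 0.05 by limma, 1 was higher and 0 lower, against 9.41% and 8.57% of all genes. With limma-voom 1 passed, against 4.33% of all genes. It was Pgls, 6-phosphogluconolactonase of the oxidative branch, at 25.68, 26.86 and 24.95 FPKM in controls against 32.01, 28.0 and 31.77 under SMF (log2 fold 0.23, limma adjusted p = 0.164; limma-voom adjusted p = 0.0209, and 0.0892 after the correction). Nnt, the mitochondrial transhydrogenase that makes NADPH from NADH, was nearly absent, at or below 0.242 FPKM.

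**Figure D3:**
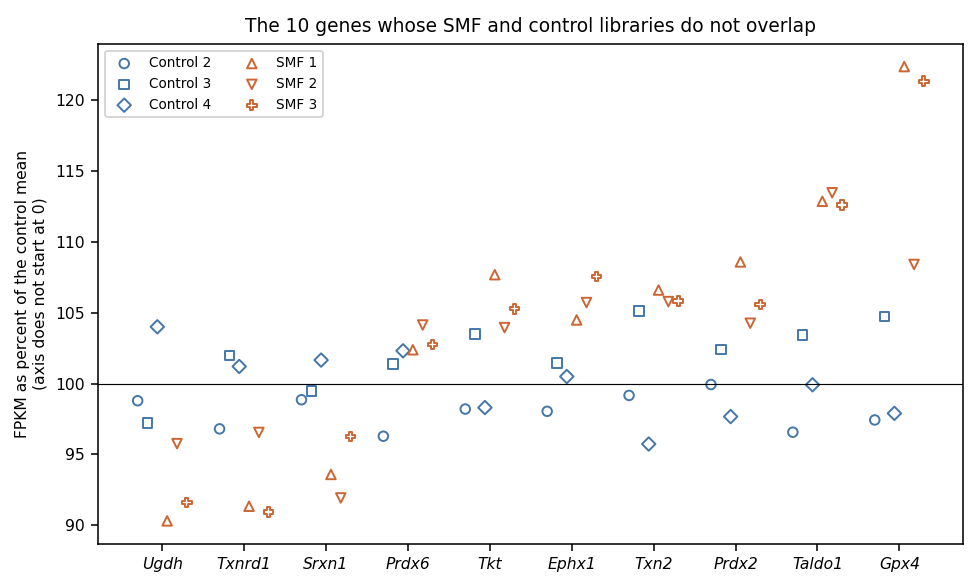
FPKM of each library as percent of the control mean for the 10 genes whose SMF and control libraries do not overlap, ordered by fold; symbols mark the 6 libraries. SMF libraries lie below the controls for Ugdh, Txnrd1 and Srxn1 and above them for the other 7 (lowest limma p, Taldo1).

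The superoxide dismutases overlapped between groups. Sod1, of the cytosol, was at 45.21, 47.36 and 44.78 FPKM in controls against 51.27, 46.18 and 50.27 under SMF, with SMF 2 inside the control range (log2 fold 0.10, 95% interval -0.01 to 0.21; adjusted p = 0.308). Sod2, of mitochondria, was at 4.767, 4.716 and 5.063 FPKM in controls against 4.901, 5.17 and 5.21 under SMF (log2 fold 0.06; 0.16 after the correction). Ccs, the copper chaperone that loads SOD1, from the list of other peroxide and thiol enzymes, was at 33.16 ± 1.99 FPKM in controls against 38.48 ± 1.86 under SMF, all 3 above every control (log2 fold 0.21, limma adjusted p = 0.164, limma-voom adjusted p = 0.0546). After the correction the log2 fold of Ccs was 0.12 and its limma-voom adjusted p was 0.394.

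Of the enzymes that reduce hydrogen and lipid peroxides, Gpx4 stood apart from Cat and Gpx1. Gpx4 (ENSMUSG00000075706), a selenoprotein that reduces lipid peroxides in membranes and restrains ferroptosis, was at 208.8, 224.4 and 209.8 FPKM in controls against 262.2, 232.3 and 260.0 under SMF. SMF 1 and 3 were well above the controls and SMF 2 only a little above Control 3. The log2 fold was 0.23 (0.10 to 0.35; SE 0.054), with an adjusted p of 0.158 by limma and 0.0074 by limma-voom. It was 0.11 after the GC/length correction (limma-voom adjusted p = 0.219). Its GC content, 60.2%, was the highest of the 36 genes.

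Cat, catalase of peroxisomes, was at 78.58, 73.7 and 70.94 FPKM in controls against 70.8, 75.61 and 82.23 under SMF, with both the lowest and the highest value in the SMF group (log2 fold 0.03). Gpx1, the main cytosolic glutathione peroxidase, was at 88.15 ± 5.98 FPKM in controls against 88.94 ± 2.68 under SMF, with a log2 fold of 0.01 (-0.11 to 0.14), and -0.09 after the correction. The ratio of Gpx4 to Gpx1 was 2.44 ± 0.164 in controls against 2.83 ± 0.113 under SMF.

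Other selenoproteins did not pass either test. The list of 23 selenoproteins and genes of selenocysteine insertion shares Gpx4, Gpx1, Txnrd1, Txnrd2 and Msrb1 with the genes above, and all 23 passed the filter. Of these, 14 had a log2 fold above 0 (60.9%, against 46.7% of all genes), with a median of 0.018. After the GC/length correction 8 were above 0, with a median of -0.016. None passed limma. At an unadjusted p under 0.05 by limma, 1 was higher and 1 lower, against 9.41% and 8.57% of all genes. With limma-voom 1, Gpx4, passed, against 4.33% of all genes.

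Peroxiredoxins were the most abundant role by summed level, at 701.7, 696.5 and 699.6 FPKM in controls against 714.2, 712.9 and 716.4 under SMF. All 3 sums of SMF libraries lay above the controls, with a mean of 714.5 ± 1.79 against 699.3 ± 2.62 (SD, n = 3). As a share of all FPKM, which sums higher in SMF libraries, they made up 0.233% against 0.234% in controls. Prdx1, the leading cytosolic form and an NRF2 target, overlapped between the groups, at 264.9, 263.9 and 271.9 FPKM in controls against 258.0, 268.9 and 272.9 under SMF (log2 fold -0.002, 95% interval -0.08 to 0.08).

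Prdx2, also cytosolic, was at 150.3, 154.0 and 146.9 FPKM in controls against 163.3, 156.8 and 158.8 under SMF, all above every control (log2 fold 0.09, adjusted p = 0.25). In M21 its exons overlap those of Junb and Rnaseh2a on the opposite strand over 5.67% and 5.8% of its length, and strand marking is not stated for these libraries, so reads there cannot be told apart. Prdx6, which acts on phospholipid peroxides, was at 52.92, 55.72 and 56.23 FPKM in controls against 56.27, 57.23 and 56.48 under SMF, with SMF 1 just above Control 4 (log2 fold 0.04).

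The other 3 peroxiredoxins overlapped between groups. Prdx3, of mitochondria, was at 86.46 ± 0.871 FPKM in controls against 84.71 ± 2.33 under SMF (log2 fold -0.03). Prdx4, of the endoplasmic reticulum, was at 20.47 ± 0.525 against 21.42 ± 1.13 (log2 fold 0.06). Prdx5, found in several compartments, was at 120.1 ± 5.59 against 125.5 ± 4.6 (log2 fold 0.06, and below 0 after the GC/length correction), and 19.1% of its exon length is shared with Trmt112 on the opposite strand, at 87.7 FPKM.

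Levels between these genes depend on the length used. The FPKM divide by the union of all annotated exons, 3970 bases for Sod1, whose principal transcript has 641 bases. By FPKM, Prdx1 (mean over all libraries 266.8), Gpx4 (232.9) and Txn1 (184.2) led and Sod1 was at 47.51. On the length of the principal transcript, Gpx4 (418.7) and Prdx1 (353.9) were followed by Sod1 (294.3) and Prdx2 (293.3). The ratio of Sod1 to Sod2 in controls was 9.46 ± 0.599 by FPKM and 34.3 on principal transcript lengths. The ratio of a gene between groups does not depend on this length.

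A match to the antioxidant response element core is a description of letters and not of binding. The 11 genes with the core were Abcc4, G6pdx, Gclm, Me1, Nfe2l2, Pgd, Prdx1, Sod1, Srxn1, Txnrd1 and Ugdh. Of these, 7 had a log2 fold below 0 (median -0.02), against 2 of the 20 tested genes with a window and no core (median 0.07). All 3 genes that were lower in every SMF library, Ugdh, Txnrd1 and Srxn1, were among the 11. Of the 7 that were higher in every SMF library, 6 had a window and no core, and Prdx6 had no window to search. Over all tested genes with a window the same split gave 54.5% of 1429 below 0 with the core and 53.7% of 6888 without, with medians of -0.012 and -0.01. Of the 1429 with the core, 200 were lower and 154 higher in every SMF library, and of the 6888 without, 882 and 760. After the GC/length correction, 5 of 11 with the core and 7 of 20 without were below 0, with medians of 0.045 and 0.052. The difference between the sets was not tested.

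Further NRF2 targets from a list of 24 were described in the same way. Of the 19 that passed the filter, 10 had a log2 fold above 0 (52.6%, against 46.7% of all genes), with a median of 0.007. None passed limma (lowest adjusted p 0.239) or limma-voom. At an unadjusted p under 0.05 by limma, 3 were higher and 0 lower, against 9.41% and 8.57% of all genes. Ptgr1, prostaglandin reductase, was at 8.499 ± 0.894 FPKM in controls against 9.938 ± 0.702 under SMF, with overlap. Fth1, ferritin heavy chain, was at 1028, 1028 and 1029 FPKM in controls against 1124, 1057 and 1092 under SMF, all above every control (log2 fold 0.08, limma adjusted p = 0.25, limma-voom adjusted p = 0.0917).

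Among 22 other peroxide and thiol enzymes, 17 passed the filter and 10 had a log2 fold above 0 (58.8%, against 46.7% of all genes), with a median of 0.018. None passed limma. At an unadjusted p under 0.05 by limma, 2 were higher and 1 lower, against 9.41% and 8.57% of all genes. With limma-voom 1 passed in each direction, against 2.08% of all genes higher and 2.25% lower. Sesn2, a sestrin induced by stress, was at 20.12, 21.71 and 22.07 FPKM in controls against 23.89, 24.73 and 24.89 under SMF (limma-voom adjusted p = 0.0426). Oxr1, an oxidation resistance protein, was at 43.39, 40.28 and 44.63 FPKM in controls against 36.64, 39.19 and 37.87 under SMF (0.0286). Neither passed limma-voom after the GC/length correction (adjusted p = 0.311 and 0.413).

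Enzymes that produce superoxide or peroxide did not pass either test. Of 19 genes listed, 17 were analysed and 9 passed the filter. Of these, 8 had a log2 fold below 0 and 1 above 0 (11.1%, against 46.7% of all genes). After the GC/length correction 4 were above 0. None passed limma (lowest adjusted p 0.326) or limma-voom. At an unadjusted p under 0.05 by limma there were 0, against 18.0% of all genes. All 9 intervals lay within 1.5-fold on log2(FPKM + 1), against 94.6% of all genes. Ero1a, an oxidase of the endoplasmic reticulum that makes peroxide, was at 6.105 ± 0.936 FPKM in controls against 5.181 ± 0.31 under SMF, with overlap. Maob, monoamine oxidase B, was at 6.133 ± 0.248 FPKM in controls against 5.492 ± 0.507 under SMF, also with overlap.

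Several folds changed when GC content and gene length were taken into account. The 26 genes with a log2 fold above 0 had a median exon length of 2902 bases and a median GC content of 50.2%, and the 10 below 0 had 4124.5 bases and 46.1%. After a smooth trend in both properties was removed within each library, 22 of the 36 were above 0 and the median log2 fold was 0.036. Osgin1 went from 0.13 to 0.04, Gpx1 from 0.01 to -0.09 and Hmox1 from 0.002 to -0.06, while Sod2 went from 0.06 to 0.16 and Gclm from -0.02 to 0.07. By limma with this correction no gene of the 11055 tested passed (0.0%); at an unadjusted p under 0.05, 6.68% of genes were higher and 5.98% lower, 12.7% together. By limma-voom with it, 0.588% of all genes were higher and 0.253% lower, 0.841% together, and none of the 36 passed.

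**Figure D4:**
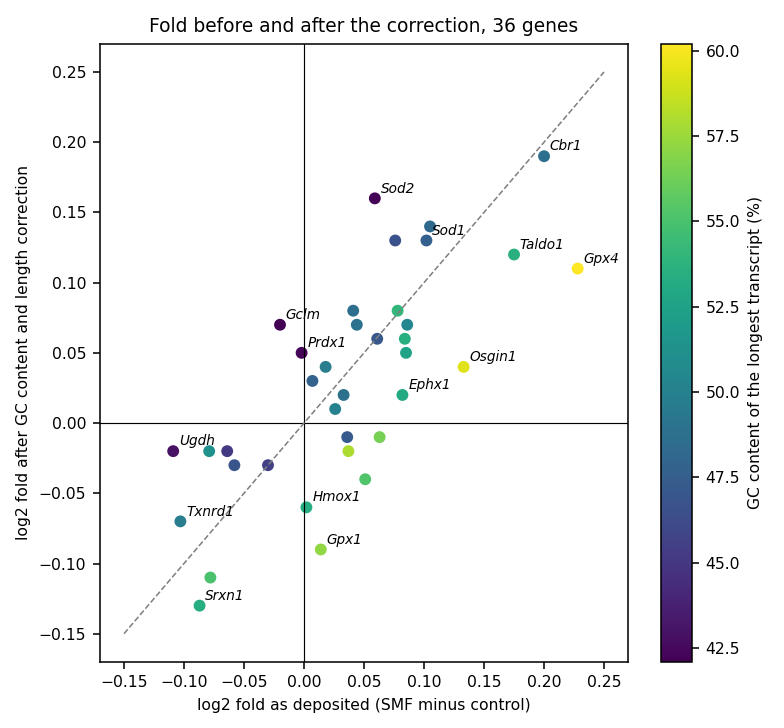
Log2 fold as deposited (horizontal) and after the GC/length correction (vertical) for the 36 tested genes, coloured by GC content of the longest transcript, with the dashed line where both are equal. Gpx4 and Taldo1 move from 0.23 and 0.18 to 0.11 and 0.12.

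**Figure D5:**
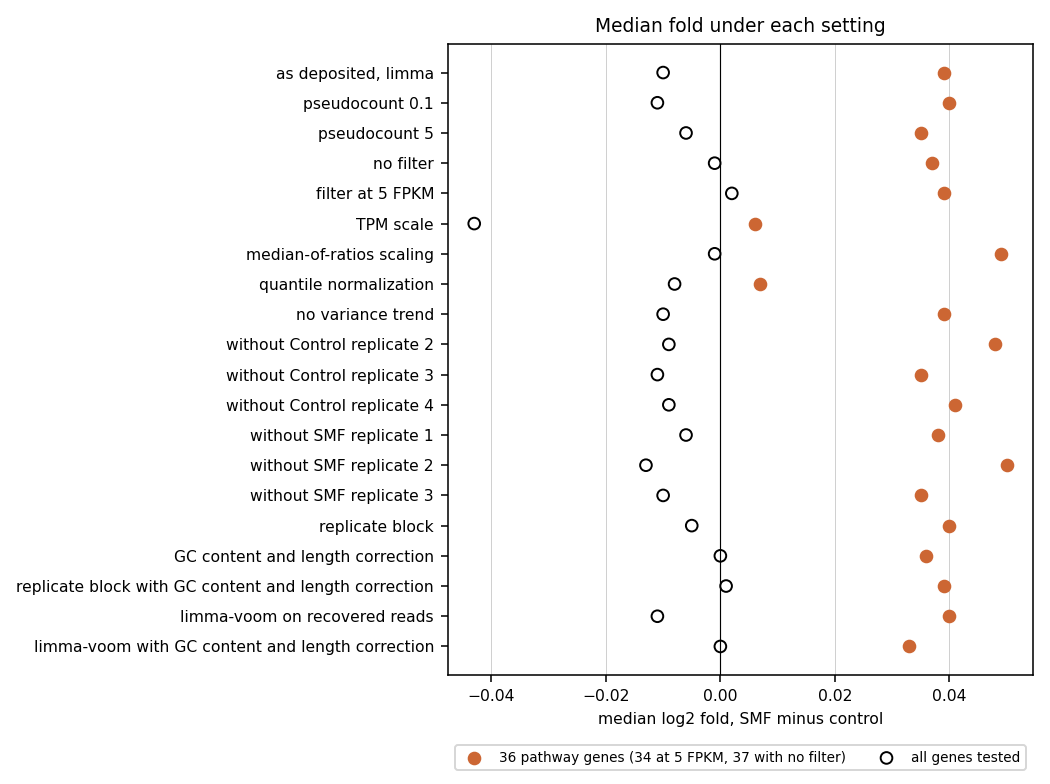
Median log2 fold of the tested pathway genes (filled) and of all genes tested (open) under each processing setting. The pathway median is 0.039 as deposited and lies between 0.006 and 0.05 in the other settings.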

How the data were processed

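Poly(A) RNA sequencing values of 6 AML12 libraries were used, grouped by title. The deposited values are FPKM calculated by the authors, 1 file per library. Per the submitters' processing notes, the build was GRCm39 and the tools HISAT2 2.1.0 and Bowtie2 2.2.3; the counting tool and the handling of multi-mapped reads are not given in the sources available, so genes with processed pseudogenes, such as Gpx4, Prdx2 and Prdx6, are uncertain. Symbols, exon lengths and GC content came from GENCODE M21 (GRCm38), which named 23521 of 23886 identifiers.

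FPKM multiplied by exon length gave whole reads (tolerance 0.02) in all libraries for 97.31% of 11114 tested genes at the M21 length and for the rest at a searched length; totals follow from this.

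SMF was compared with control by limma 3.58.1 (R 4.3.3) on log2(FPKM + 1), two-sided, with eBayes moderation that lets the variance follow the mean, adjusted by Benjamini-Hochberg over all genes tested; folds are on that scale, which understates low genes. limma-voom ran on the recovered reads. The GC/length correction was a loess (span 0.3) on GC content and log length in each library, for 99.47% of tested genes. Alternatives covered pseudocounts, filters, scalings, leaving out each library and a replicate block; limma-voom with the correction was added after seeing the data. The code of both tests was run on simulated data with known changes as a check of the code, not of calibration on these libraries. The intervals come from the limma fit and, like its p-values, measure the spread between these libraries. The floor of reads given for Nqo1 covers counting error only. Figures used matplotlib 3.10.9.

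The gene set, the related lists and the rule for named genes (genes past a test, genes whose groups do not overlap, the most abundant of each role, and 12 set genes; from each related list, genes past a test or otherwise the 2 with the smallest p) were chosen with earlier results of these data known. Bach1, Slc7a11, Nnt and Ccs fall outside the rule and were chosen after their values were seen.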

Additional observations from a re-analysis of the deposited data

How the results depend on the processing

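Over 19 alternatives, 682 values of single genes were recomputed; 618 kept their direction and side of the threshold, 2 (Taldo1 and Gpx4 with limma-voom) passed it, and 62 changed sign, 17 of them on leaving out 1 library. In all, 22 genes never changed sign. Of genes called over all genes tested, limma gave 0 in each direction; the filter at 5 FPKM gave 6 higher and 2 lower, limma-voom 231 and 250 (2 pathway genes higher), and limma-voom with the GC/length correction 65 and 28. Leaving out 1 library gave 0 to 2 higher and 0 to 1 lower. The median log2 fold of the pathway genes was 0.035 with a pseudocount of 5, 0.006 on the TPM scale (which moved the median of all genes to -0.043), 0.049 with median-of-ratios scaling, 0.007 after quantile normalization, 0.036 with the correction, 0.033 with limma-voom and the correction, and 0.035 to 0.05 on leaving out 1 library. The cause was not tested.

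Signs changed on the TPM scale for Hmox1 (-0.032), Abcc4 (-0.015), Gclc (-0.027), Gsr (-0.0074), Cat (-0.00082) and Gpx1 (-0.019), and with median-of-ratios scaling for Prdx1 (0.0081). Quantile normalization changed Hmox1 (-0.016), Abcc4 (-0.002), Gclc (-0.033), Gsr (-0.031), Txn1 (-0.026), Cat (-0.0048) and Gpx1 (-0.033). The GC/length correction changed Keap1 (-0.019), Hmox1 (-0.063), Gclm (0.068), Txn1 (-0.011), Msrb1 (-0.044), Gpx1 (-0.091), Prdx1 (0.055) and Prdx5 (-0.015). With limma-voom it changed Keap1 (-0.022), Hmox1 (-0.069), Gclm (0.086), Txn1 (-0.037), Msrb1 (-0.058), Gpx1 (-0.11), Prdx1 (0.067) and Prdx5 (-0.023). Leaving out 1 library gave log2 folds of -0.024 to 0.069 for Abcc4, -0.023 to 0.084 for Cat, -0.013 to 0.02 for Gclc, -0.072 to 0.029 for Gclm, -0.042 to 0.05 for Gpx1, -0.007 to 0.053 for Gsr, -0.065 to 0.071 for Hmox1, -0.022 to 0.1 for Keap1, -0.0088 to 0.11 for Msrb1 and -0.019 to 0.021 for Prdx1.

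Control and SMF libraries share the numbers 2 and 3 only, and nothing in the labels says that a number marks a batch. Deviations from the group means correlated across genes at 0.06 and 0.05 for the same-numbered pairs, inside the range of the differently numbered pairs, -0.15 to 0.11. Control 4 and SMF 1 have no same-numbered partner, so a replicate block drew its folds only from the pairs numbered 2 and 3. This block gave 13 genes higher and 6 lower, and 10 and 7 with the GC/length correction. The block changed the sign of Keap1 (-0.054), Hmox1 (-0.013), Gclm (0.039), Msrb1 (-0.02), Gpx1 (-0.062) and Prdx1 (0.035), and with the correction of Keap1 (-0.086), Hmox1 (-0.058), Osgin1 (-0.022), Gclm (0.088), Msrb1 (-0.082), Me1 (0.00021), Gpx1 (-0.13), Prdx1 (0.058) and Prdx5 (-0.034).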
